A study of Homo sapiens with 47 samples.

Results

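MYC encodes a transcription factor that pairs with MAX on DNA and drives growth and cell division. It lies in a wide stretch of DNA with few genes, and its promoter is known to be reached by enhancers that lie far away and differ between tissues. Downstream of it lies PVT1, a long non-coding RNA gene whose introns are known to hold such enhancers. Acetylation of histone H3 at lysine 27 (H3K27ac) marks active promoters and enhancers, and RNA polymerase II (RNAPII) gathers at active promoters and, more weakly, at active enhancers.

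The members described here are all peak regions between positions 127700000 and 130800000 of chromosome 8 (hg19), a window of 3.1 Mb around the MYC start at 128748315. Peaks of all 47 libraries were merged into 1 region where they shared at least 1 bp, which gave 73840 regions in the genome, of which 59 lay in the window. Each region is named by the distance of its middle from the MYC start in kb, with a plus sign downstream.

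The data are ChIP-seq peak lists of Ishikawa cells, an established line from a human endometrial adenocarcinoma, kept in medium depleted of hormones. Cells expressed dCas9-VP16(10x), a catalytically dead Cas9 with 10 copies of the VP16 activation domain, or dCas9-p300(core), which carries the acetyltransferase core of p300. Transfected cells were selected with antibiotics before harvest. With either fusion they received gRNA pools for estrogen receptor binding sites (ERBSs; Pool 1, Pool 2 and Pool 3, each with 1 ERBS near each of MMP17, CISH, FHL2 and HES2), for regions adjacent to ERBSs (Adjacent) or for the IL1RN promoter, the control. All cells thus carried a dCas9 fusion and gRNAs, and no library came from cells without them. The target genes MMP17, CISH, FHL2, HES2 and IL1RN lie on other chromosomes than MYC, so that the domain was not a target in any library. Each fusion had 10 H3K27ac and 10 RNAPII libraries, with 2 replicates of each of the 5 gRNA pools, and 1 library labelled Adjacent (H3K27ac, dCas9-VP16(10x), replicate 1) held IL1RN gRNAs as well. The HA tag of the fusions was profiled in 5 libraries of dCas9-VP16(10x) and 2 of dCas9-p300(core), here also with the gRNAs of all ERBSs together. Nothing in the labels says that replicates came from separate transfections, so the p-values below measure the spread between libraries, which may be technical.

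Peak lists differed in length. With dCas9-VP16(10x) the H3K27ac lists held 5322 to 32052 peaks, and those of dCas9-p300(core) held 1805 to 24280. RNAPII lists held 16041 to 40757, and HA lists held 141 to 30740. The read depth behind them is unknown, and a region without a peak may still carry signal below the calling threshold. Peak names of H3K27ac libraries began with the number 15977 or with no such number, and both kinds were present for both fusions. The labels do not say what the number stands for. It is called a run identifier here only to name the libraries that share it. All RNAPII libraries of dCas9-p300(core) carried that identifier and none of those of dCas9-VP16(10x) did. For RNAPII the fusion and the identifier thus cannot be told apart. Starts of the epithelial genes KRT8, KRT18, EPCAM and CDH1 and of the Müllerian and endometrial genes PAX8, SOX17 and EMX2 had an RNAPII peak within 1 kb in all 20 libraries, and an H3K27ac peak in 11 to 20 of them. Starts of PTPRC, CD3E, CDH5 and ALB, which mark other cell types, had none.

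The peaks of the window lay at MYC and downstream of it. Of the 59 regions, 4 were upstream of MYC, 1 held the MYC start, 2 lay in the MYC body, 1 between MYC and PVT1, 34 in PVT1 and 17 downstream of PVT1. The 4 upstream regions were in at most 3 of the 47 lists, and a pair of them lay within 2 kb of the MYC start. The starts of POU5F1B, CASC8, CASC19, CCAT2 and PRNCR1, genes of the upstream stretch that holds known enhancers in other tumor types, had no H3K27ac or RNAPII peak within 1 kb in any library. CASC11, a non-coding gene antisense to MYC with its start 2 kb upstream, had H3K27ac within 1 kb of that start in 5 dCas9-VP16(10x) libraries and RNAPII in 2 dCas9-p300(core) libraries. The regions at -2 kb themselves had H3K27ac in 0 and 1 library. The MYC start region also reaches within 1 kb of the CASC11 start, so the 5 are not separate from MYC. PCAT1, another non-coding gene, had its annotated start outside the window, at -1178 kb, and there H3K27ac and RNAPII peaks were present in all 20 libraries of each antibody. Of the 59 regions, 50 had an H3K27ac peak in some list, 23 an RNAPII peak and 6 an HA peak, and 17 were in 1 list only.

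**Figure D1:**
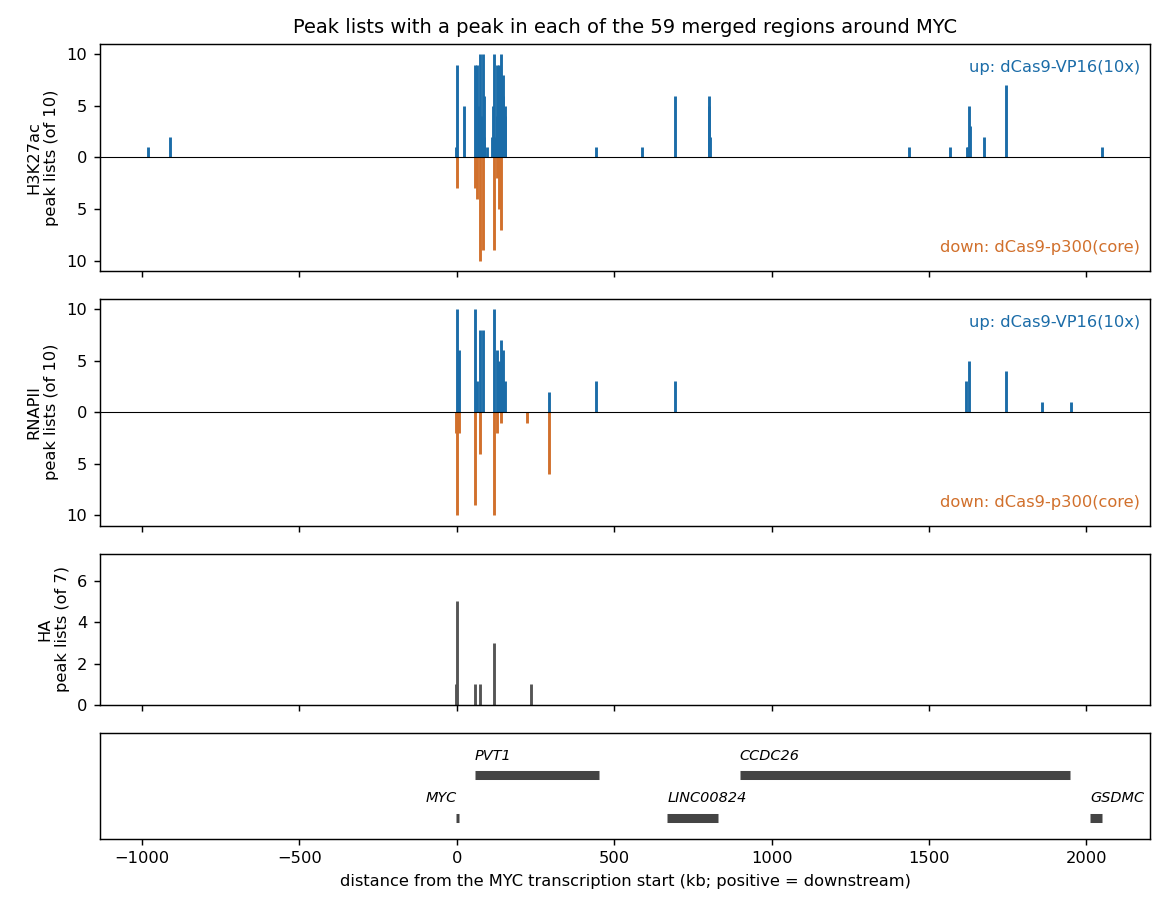
Number of peak lists with a peak in each of the 59 merged regions (bars), against distance from the MYC start in kb, for H3K27ac and RNAPII (up, dCas9-VP16(10x); down, dCas9-p300(core); 10 lists each) and HA (7 lists), with gene bodies below. Regions found in most lists lie between the MYC start and +155 kb, in the first part of PVT1, and the upstream side is almost empty.

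Acetylation was concentrated in the first part of PVT1. Regions with an H3K27ac peak in at least 5 of 20 libraries numbered 15 in PVT1, which itself is 393 kb long, and they ran from 1 kb before its annotated start to 97 kb into it, that is from 58 to 155 kb downstream of the MYC start. Their summed width was 42810 bp. In the remaining PVT1 body no region reached 5 libraries. In the whole window, 9 regions had an H3K27ac peak in at least 10 of 20 libraries: the MYC start and 8 regions of PVT1. For comparison, the genome was tiled into 992 windows of the same length, in which the median number of such regions was 7 and 40.12% held more than the 9 of the MYC window.

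The region at +74 kb (chr8:128820108-128825404, in an intron of PVT1) was the only one in the window with H3K27ac in all 20 libraries. Over the genome 567 regions had that property, and 13.31% of the windows of the same length held more than 1 of them. Enrichment, the fold of the highest peak of a region over local background as the peak caller gave it, was 25.2 to 48.9 with a median of 31.8 at +74 kb in the dCas9-VP16(10x) libraries. In the dCas9-p300(core) libraries it was 9.93 to 22.8 with a median of 13.2. The control libraries with IL1RN gRNAs gave 34.1 and 26.9 with dCas9-VP16(10x), and 13.5 and 12.9 with dCas9-p300(core), within the range of the other pools. Between the fusions the ranges did not overlap, and every dCas9-VP16(10x) library was above every dCas9-p300(core) library. The same shift was present across the lists, because the median log2 difference over all 567 regions was 1.00 in the same direction. Without centring, limma called 426 of the 567 regions higher with dCas9-VP16(10x), and the share without overlap is not given here. After each library was centred on its median over those regions, the log2 difference (dCas9-VP16(10x) minus dCas9-p300(core)) at +74 kb was 0.18 (SE 0.30, 95% interval -0.46 to 0.81, 10 libraries each; limma with gRNA pool as a covariate, adjusted p = 0.98). Within the libraries of run 15977 the centred difference was 0.55 (interval -0.70 to 1.80) and within those with no run identifier -0.40 (interval -0.68 to -0.11; limma, adjusted p = 0.23), so its direction differed between the 2 sets of libraries. In this test limma called 0% of the 567 regions, with 23 at an unadjusted p below 0.05.

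Next to it, the +84 kb region (chr8:128829814-128833958) and the +119 kb region (chr8:128865456-128868362), both intronic, had H3K27ac peaks in 19 of 20 libraries. Median enrichment at +84 kb was 20.3 in 10 dCas9-VP16(10x) libraries and 11.2 in 9 dCas9-p300(core) libraries, and the ranges of 16.0 to 35.2 and 5.91 to 18.7 overlapped. At +119 kb the medians were 24.0 and 13.3 with ranges of 15.3 to 79.0 and 5.68 to 69.1, the highest H3K27ac values of the domain, reached in Adjacent replicate 2 of dCas9-VP16(10x) and Adjacent replicate 1 of dCas9-p300(core). When regions present in at least 8 of 10 libraries of each fusion were fitted, the centred log2 differences were 0.05 (SE 0.34) at +84 kb and 0.06 (SE 0.20) at +119 kb (limma, adjusted p = 0.998 and 0.99). At each of these regions the fit left out the 1 dCas9-p300(core) library with no peak. Across the gRNA pools +119 kb was not called in this fit (limma F test, F = 5.85, unadjusted p = 0.0032, adjusted p = 0.22). The F test called 0 of the 1491 regions fitted, with 201 at an unadjusted p below 0.05.

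The regions at +65 and +129 kb, also intronic, had H3K27ac in most dCas9-VP16(10x) libraries. At +65 kb (chr8:128811897-128815504) it was found in 9 dCas9-VP16(10x) libraries at 8.08 to 23.2-fold (median 17.0) and in 4 dCas9-p300(core) libraries at 5.16 to 10.6-fold (median 7.52). At +129 kb (chr8:128875491-128879836) it was found in 9 at 5.51 to 43.2-fold (median 23.9) and in 2 at 7.45 and 9.19-fold. The ranges overlapped at both, and neither difference in detection was called.

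Counting all 3 antibodies, the +119 kb region had peaks in 42 of the 47 libraries, more than any other region of the window. The MYC start followed with 37, then the +74 kb region with 33 and the PVT1 start with 32.

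**Figure D2:**
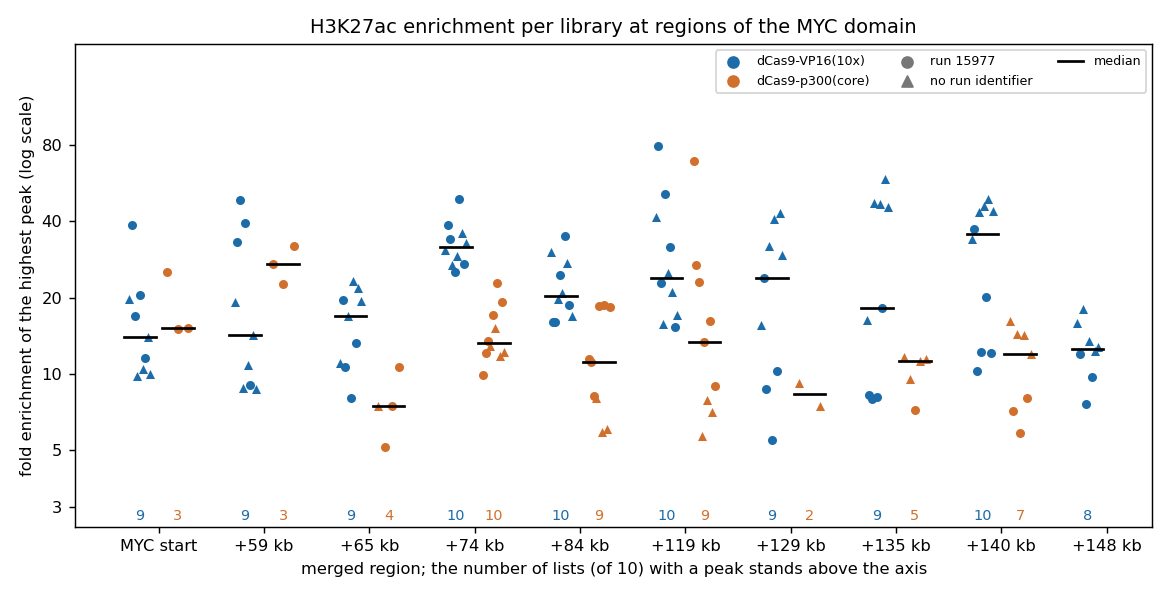
H3K27ac enrichment of the highest peak in each library (log axis) at the 10 regions with a peak in at least 8 of 20 libraries, with dCas9-VP16(10x) in blue and dCas9-p300(core) in orange, symbols by run identifier, a black line at the median, and the number of lists with a peak above the axis. At +74 kb all 20 libraries had a peak and the fusions did not overlap before centring, whereas the MYC start had a peak in 9 and 3 lists. Most regions with H3K27ac in all 20 libraries were likewise higher with dCas9-VP16(10x) before centring.

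At the MYC start itself (chr8:128747045-128751363, a region that spans the first 2 exons of MYC and overlaps the antisense gene CASC11), H3K27ac was found in 9 of 10 dCas9-VP16(10x) libraries and 3 of 10 dCas9-p300(core) libraries. Where it was found, enrichment was 9.86 to 38.8 (median 14.0) and 15.1 to 25.2 (median 15.2), and these ranges overlapped. The difference in detection had p = 0.020 in a two-sided Fisher's exact test and 0.098 after adjustment over all 27627 regions tested, so it was not called. Detection moved with the length of the list: the 12 lists with a peak at the MYC start held at least 16457 peaks, and the 8 without one held at most 10532. The part of list length in this difference was not tested. Too few dCas9-p300(core) libraries had a peak for the level at the MYC start to be compared between fusions or between gRNA pools.

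The start of PVT1 at +59 kb (chr8:128806102-128808349, over its first 2 exons) had H3K27ac in the same 12 libraries as the MYC start. Its enrichment was 8.76 to 48.7 (median 14.3) in the 9 dCas9-VP16(10x) libraries and 22.6 to 32.1 (median 27.1) in the 3 dCas9-p300(core) libraries. At this start, as at MYC, the dCas9-p300(core) libraries with an H3K27ac peak were Adjacent replicates 1 and 2 and IL1RN replicate 1. Of 19869 protein-coding starts, 36.8% had H3K27ac within 1 kb in at least as many libraries as the MYC start, and 321 had it in all 20.

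Further into PVT1, the +140 kb region (chr8:128884314-128892465) was the widest of the window at 8152 bp. It had H3K27ac in 10 dCas9-VP16(10x) and 7 dCas9-p300(core) libraries, with enrichment of 10.2 to 49.0 (median 35.7) and 5.87 to 16.2 (median 12.0). No dCas9-p300(core) list had an H3K27ac peak at both this region and the MYC start. A peak was present at the MYC start and not +140 kb in 3 lists, and at +140 kb and not the MYC start in the other 7. Of the dCas9-VP16(10x) lists, 9 had both. The share of other pairs of regions that split the lists in this way is not given here. The 3 dCas9-p300(core) lists with the MYC start were the longest of that fusion, with 16457 to 24280 peaks, but had peaks in only 4 PVT1 regions each.

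Regions were also ranked within each list by the -log10 p of their strongest peak, with rank 1 the strongest. Lists held 1168 to 22568 regions, and those of dCas9-p300(core) with no run identifier were the shortest, so a rank as percent of the list depends on list length and is given beside the rank itself. At +140 kb the 9 libraries with no run identifier, 5 of dCas9-VP16(10x) and 4 of dCas9-p300(core), had the region at rank 54 to 255 (median 108), which was the top 0.36% to 15.6% of their lists. In run 15977 it was present in 8 of 11 libraries, at rank 1867 to 11673 (median 3412), or 13.1% to 95.9%. The ranks of the 2 sets did not overlap, and the percents did. List length also bounds the ranks, since the dCas9-p300(core) lists with no identifier held only 1168 to 2986 regions. The share of all regions whose ranks separate by run in this way is not given here. Among the libraries with no identifier, the fusions overlapped in rank, with 57 to 255 for dCas9-VP16(10x) against 54 to 182.

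The +135 kb region (chr8:128881652-128884262) was at rank 42 to 3434 in the 9 libraries with no identifier. It was at rank 3060 to 17014 in the 5 libraries of run 15977 that had it, so these ranks overlapped, and 6 of the 11 libraries of that run had no peak there. The MYC start was at rank 5608 to 12094 in 5 libraries with no identifier and 6600 to 10457 in 7 of run 15977, and these ranges overlapped too. The parts of run identifier and list length in these ranks were not tested.

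**Figure D3:**
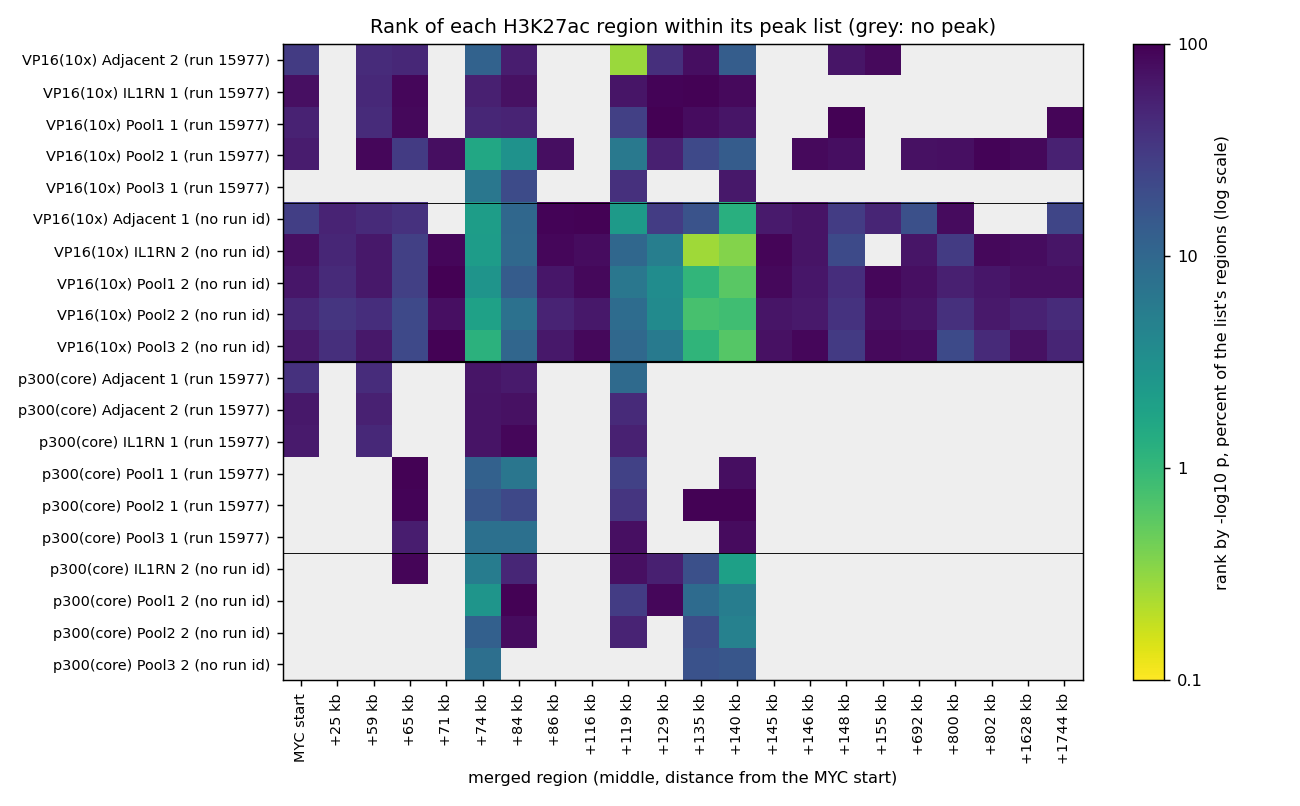
Rank of each H3K27ac region within its own list, as percent of the list's regions by -log10 p (color, log scale; low values are strong peaks; grey, no peak), for the 22 regions with a peak in at least 5 of 20 libraries. Rows are libraries grouped by fusion (thick line) and run identifier (thin lines). At +140 kb the libraries with no run identifier hold the strongest ranks in both fusions, while the percent shown also depends on list length. The last 9 columns are filled in dCas9-VP16(10x) rows only.

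The strongest H3K27ac region of the window was never the MYC start. It lay at +74 kb in 6 of the 20 libraries, at +140 kb in 5, at +119 kb in 4, and at +135 kb and +59 kb in 2 each, and at +84 kb in the remaining 1.

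Most window regions with H3K27ac had it in dCas9-VP16(10x) lists alone. Of the 50 regions with H3K27ac, 41 had it in dCas9-VP16(10x) lists only, 9 in lists of both fusions and 0 in dCas9-p300(core) lists only. That is 82% in dCas9-VP16(10x) lists only, against 39.2% of the 38438 regions of the genome with H3K27ac, of which another 16.4% were in dCas9-p300(core) lists only. The dCas9-VP16(10x) lists were longer, with a median of 25025 peaks against 6143, and the part of list length in these shares was not tested. Of the 36 regions with a peak in at least 2 libraries, 35 (97.2%) were found in more dCas9-VP16(10x) than dCas9-p300(core) libraries, as were 81% of the 27627 regions tested in the genome. In the Fisher's exact test 1 of the 36 was called at an adjusted p of 0.05, a share of 2.778%, against 2.38% of all regions tested that were called in this direction and 0.00362% in the other, so the window was near the background. At an unadjusted p below 0.05 there were 16 of 36, or 44.44%, against 26.19% of all regions.

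The called region was at +148 kb (chr8:128894837-128898226, in an intron of PVT1). It had H3K27ac in 8 dCas9-VP16(10x) libraries at 7.60 to 18.1-fold (median 12.6) and in 0 of 10 dCas9-p300(core) libraries (Fisher's exact test, adjusted p = 0.037). The 8 libraries were 5 of 5 with no run identifier and 3 of 5 of run 15977. Left out in turn, single libraries moved the number of called regions of the window between 1 and 17, the latter without Pool 3 replicate 1 of dCas9-VP16(10x), whose list held 5322 peaks. It was 9 without Adjacent replicate 1 of dCas9-p300(core), 7 without IL1RN replicate 1 or Pool 1 replicate 1 of dCas9-VP16(10x), 6 without Adjacent replicate 2 of dCas9-VP16(10x), and 5 without Adjacent replicate 2 or IL1RN replicate 1 of dCas9-p300(core). It was 1 without Pool 1 replicate 2 of dCas9-VP16(10x), or Pool 2 or Pool 3 replicate 2 of dCas9-p300(core), and 2 or 3 without any of the other libraries. The share of all regions called without each library is not given here. These counts are thus not read as a trait of the window. With every list cut to its 1805 strongest peaks, 0 regions were called, and +74 kb had a peak in 7 libraries of each fusion. Peaks were then present at +140 kb in 5 and 4, +135 kb in 4 and 4, and +119 kb in 7 and 3. At +129 kb they were present in 4 and 0, within +84 kb in 3 and 3, and at the MYC start in 0.

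Distal regions downstream of PVT1 also had H3K27ac in dCas9-VP16(10x) lists only, but were not called. The +692 kb region, over an exon of the non-coding gene LINC00824, had H3K27ac in 6 dCas9-VP16(10x) libraries (median 9.09), and the +1744 kb region, over an exon of the non-coding gene CCDC26, in 7 (median 10.4). The regions at +800 and +802 kb, in no exon, had it in 6 and 5 (medians 15.0 and 10.6), that at +1628 kb in 5 (median 10.9), and that at +25 kb, between MYC and PVT1, in 5 (median 13.5). None of the 6 was in a dCas9-p300(core) list, and none was called (Fisher's exact test, adjusted p of 0.052 to 0.124). The starts of LINC00824 and CCDC26 had no peak within 1 kb in any library, and that of GSDMC, a gasdermin gene at the end of the window, had H3K27ac in 1.

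The length of PVT1 regions covered by H3K27ac peaks was 4286 to 43751 bp (median 30526) in the dCas9-VP16(10x) libraries and 2925 to 9483 bp (median 4750.5) in the dCas9-p300(core) libraries. The ranges overlapped through 1 dCas9-VP16(10x) library, Pool 3 replicate 1. Some lists of like length differed between the fusions, and others did not. IL1RN replicate 1 of dCas9-VP16(10x), with 16463 peaks, covered 9552 bp, and Adjacent replicate 2 of dCas9-p300(core), with 16457 peaks of the same run, covered 4061 bp. With 26862 peaks, Adjacent replicate 2 of dCas9-VP16(10x) covered 16573 bp, and with 24280 peaks, Adjacent replicate 1 of dCas9-p300(core), again of that run, covered 4511 bp. The shorter Pool 3 replicate 1 lists of that run were close. That of dCas9-VP16(10x), with 5322 peaks, covered 4286 bp, and that of dCas9-p300(core), with 5599 peaks, covered 4106 bp. The part of list length in coverage was not tested. Among the shortest lists, the 4 dCas9-p300(core) libraries with no run identifier held 1805 to 4346 peaks, of which 8 to 14 lay in the window. Their share of peaks in the window, 0.230% to 0.443%, was higher than in all other H3K27ac libraries, where it was 0.0371% to 0.196%.

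**Figure D4:**
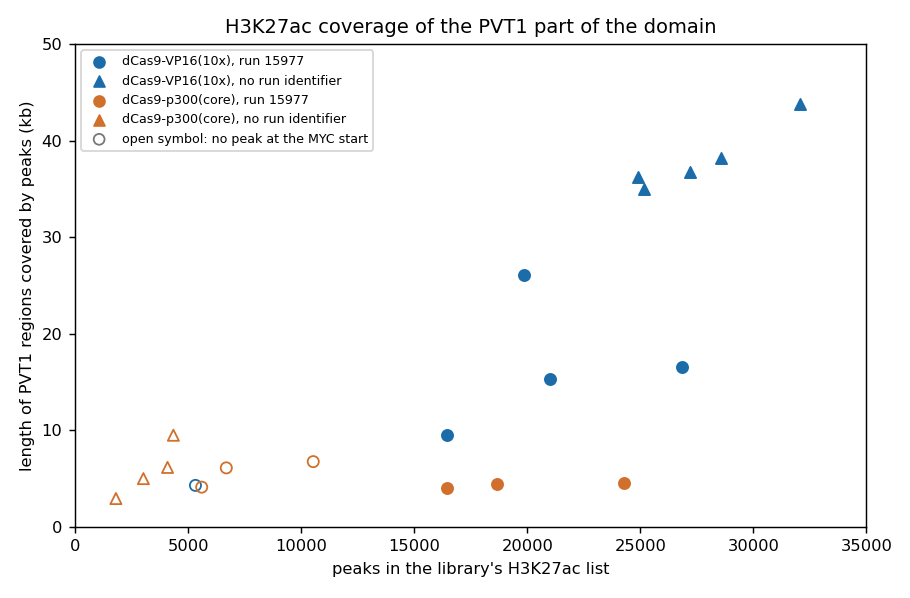
Length of PVT1 regions covered by H3K27ac peaks (kb, where 1 kb is 1000 bp) against the number of peaks in the library's list, for 20 libraries (blue, dCas9-VP16(10x); orange, dCas9-p300(core); circles, run 15977; triangles, no run identifier; open symbols, no peak at the MYC start). In lists of 16457 peaks or more the dCas9-VP16(10x) libraries cover 9552 to 43751 bp and the dCas9-p300(core) libraries 4061 to 4511 bp, and open symbols are the short lists.

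RNAPII gave another order. The MYC start had an RNAPII peak in all 20 libraries, as did 40.5% of the 19869 protein-coding starts. It was the strongest region of the window by -log10 p in each library. It stood in the top 2.14% to 24.0% of the dCas9-VP16(10x) lists and the top 2.57% to 11.3% of the dCas9-p300(core) lists, and 14.7% of the 8512 regions with RNAPII in all 20 libraries had a higher mean centred enrichment. Only 1 more region of the window, +119 kb, had RNAPII in all 20 libraries. In both antibodies, 4 regions had a peak in at least 10 of 20 libraries: the MYC start, the PVT1 start, +74 kb and +119 kb. The median window of the same length held 11 regions with RNAPII in at least 10 libraries, and 74.9% held more than these 4.

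RNAPII enrichment at the MYC start was 12.8 to 26.8 (median 20.3) in the dCas9-VP16(10x) libraries and 20.9 to 47.9 (median 34.2) in the dCas9-p300(core) libraries, and the ranges overlapped. The lower values of dCas9-VP16(10x) followed a shift of all regions, whose median log2 difference was -0.71. After centring, the log2 difference at the MYC start was -0.06 (SE 0.11, 95% interval -0.30 to 0.18, 10 libraries each; limma, adjusted p = 0.73). In the same test 23% of the 8512 regions were called. Across the 5 gRNA pools the MYC start was not called either (limma F test, F = 0.63, adjusted p = 0.9997). This F test called 0% of the 8512 RNAPII regions and 0% of the 567 H3K27ac regions, with 93 and 102 regions at an unadjusted p below 0.05, and at +74 kb for H3K27ac its adjusted p was 0.29. The control libraries with IL1RN gRNAs had 22.5 and 25.2-fold RNAPII enrichment at the MYC start with dCas9-VP16(10x), where Adjacent gave 26.8 and 22.3, Pool 1 23.2 and 16.7, Pool 2 12.8 and 15.9, and Pool 3 17.1 and 18.3. With dCas9-p300(core) the control gave 20.9 and 42.5, Adjacent 47.9 and 44.5, Pool 1 31.9 and 24.9, Pool 2 36.6 and 29.0, and Pool 3 29.7 and 37.4, so the pair of control libraries spanned most of the range.

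At +119 kb RNAPII enrichment was 6.10 to 11.1 (median 8.57) with dCas9-VP16(10x) and 7.34 to 28.0 (median 15.9) with dCas9-p300(core). The MYC start exceeded it in all 20 libraries, by 1.74 to 3.01-fold (median 2.31) and 1.14 to 3.06-fold (median 2.41). The centred log2 difference between the fusions at +119 kb was -0.17 (SE 0.15, 95% interval -0.47 to 0.14; limma, adjusted p = 0.43). Among the 8512 regions this one was low, since 91.6% had a higher mean.

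The PVT1 start had RNAPII in 10 and 9 libraries, at 6.31 to 16.9-fold (median 10.4) with dCas9-VP16(10x) and 17.1 to 48.2-fold (median 23.4) with dCas9-p300(core), without overlap. Most regions shifted in this direction before centring. Of the 8512 regions with RNAPII in all 20 libraries, limma without centring called 6510 lower with dCas9-VP16(10x). The share of regions without overlap is not given here. When regions in at least 8 of 10 libraries were fitted, the centred log2 difference was -0.37 (SE 0.14; limma, adjusted p = 0.061) and was not called, with the 1 library with no peak left out of the fit. The end of the MYC gene at +7 kb (chr8:128753969-128755791, over exon 3) had RNAPII in 6 and 2 libraries (medians 12.6 and 9.41), and no H3K27ac in any.

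**Figure D5:**
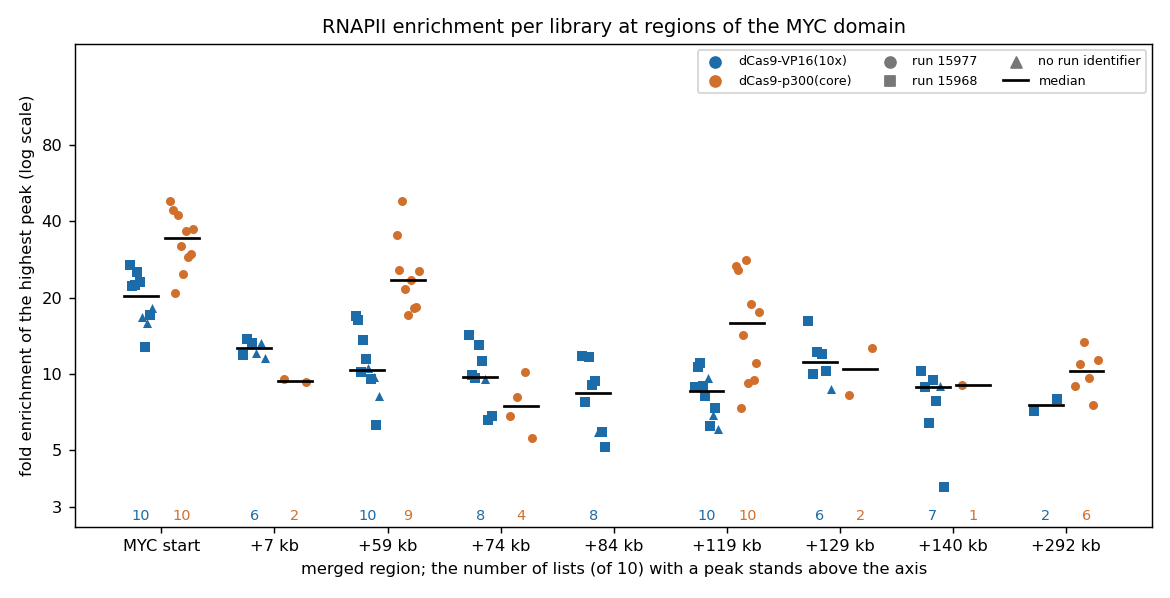
RNAPII enrichment of the highest peak in each library (log axis) at the 9 regions with a peak in at least 8 of 20 libraries, drawn as for H3K27ac, with squares for run 15968. The MYC start and +119 kb have a peak in all 20 libraries, the values at the MYC start are the higher of the pair, and +84 kb has peaks in dCas9-VP16(10x) libraries only.

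In detection of RNAPII peaks, 1 region of the window passed the test between the fusions. Of 20 window regions with a peak in at least 2 libraries, 15 (75%) were found in more dCas9-VP16(10x) libraries and 2 in more dCas9-p300(core) libraries, and of the 12 of these in PVT1, 10 and 1. Over the genome 29.7% of the regions tested were found in more dCas9-VP16(10x) libraries and 43.5% in more dCas9-p300(core) libraries. The +84 kb region, at 5.15 to 11.8-fold (median 8.40), was found in 8 and 0 libraries (Fisher's exact test, adjusted p = 0.048) and was the 1 region called of 20. With the replicate block the smallest adjusted p in the window was 0.063, and 0 regions were called, as with -log10 q of at least 20 or with peaks merged up to 1000 bp apart. Over the genome 0.586% of 41642 regions were called with dCas9-VP16(10x) higher and 0.917% with dCas9-p300(core) higher. At +74 kb RNAPII was found in 8 and 4 libraries, at +129 kb in 6 and 2, at +140 kb in 7 and 1 and at +148 kb in 6 and 0, none of which was called. The +292 kb region went the other way, with 2 and 6 libraries (median 7.56 and 10.3), and was not called. With lists cut to their 16041 strongest peaks the region called was a part of +74 kb (chr8:128823518-128823875), with 8 and 0 libraries (adjusted p = 0.037 in Fisher's exact test), and +84 kb had 6 and 0 and was not called.

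The HA antibody recognizes a tag on the fusion. No HA library came from cells without a fusion, so at sites not targeted its binding and unspecific signal cannot be told apart. The MYC start had an HA peak in each of the 5 dCas9-VP16(10x) libraries and in neither dCas9-p300(core) library, whose lists held only 154 and 141 peaks in the genome. Enrichment at the MYC start was 10.6 and 18.8 with ERBS gRNAs, 6.05 and 15.3 with Adjacent gRNAs and 8.24 with IL1RN gRNAs, so it was present whichever gRNAs the cells received. The +119 kb region had HA peaks with Adjacent gRNAs in both replicates (9.27 and 19.3) and in ERBS replicate 2 (13.0). The other 4 regions with HA, at -2, +59, +74 and +235 kb, were in ERBS replicate 2 only, the longest HA list. Of the regions in the first ERBS list, 99% were in the second, and of those in the second, 23% were in the first. The pair may come from 1 library, which these shares do not settle. Counted once, the MYC start was found in 4 of 4 dCas9-VP16(10x) libraries and +119 kb in 3. Starts of 2472 protein-coding genes, 12.4% of 19869, had an HA peak within 1 kb in all 5 lists.

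Other genes of the MYC network, fixed as a list, gave a frame for the MYC start. MAX, the partner of MYC, and MXD1, MXD3 and MNT, which compete with MYC for MAX, had RNAPII peaks at their starts in all 20 libraries, as did MGA, another partner of MAX, MLX, a relative of MAX, and MLXIPL, a partner of MLX. Of the 13 genes with MYC included, 8 had RNAPII in all 20 libraries and 11 in at least 10, against 40.5% and 59.6% of all protein-coding starts. MYCN, a MYC paralog, had RNAPII in 8 libraries, MYCL, another, in 17, MXI1 in 9, and MXD4 and MLXIP in 19 each. For H3K27ac, 10 of the 13 had a peak in at least 10 libraries, against 44.7% of all starts, and 0 in all 20. MAX, MXD1 and MXD3 had H3K27ac peaks in 9 dCas9-VP16(10x) and 3 dCas9-p300(core) libraries, the same numbers as at MYC, and MNT in 9 and 5.

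Among 8132 protein-coding starts in regions with RNAPII in all 20 libraries, those whose centred RNAPII enrichment was most like that of the MYC start were DAPK3, ADAMTS1, HSP90AA1, ACTN4 and RAB40C. Their Pearson correlations over the 20 libraries, which share the antibody and fall into 3 sets by run identifier that follow the fusion, were 0.844 to 0.853, against a median of -0.00385 over all. The correlation of the MYC start with the +119 kb region was 0.276, which 22.2% of the starts exceeded.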

How the data were processed

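Peak lists were deposited by the authors for each library. Per the labels and the submitters' processing notes, reads were aligned to hg19 with Bowtie 1.1.2, SAMtools and bedtools were used, and MACS2 2.1.0.20140616 is named. Column 7 was used as the deposited fold enrichment ratio of a peak, and the deposited -log10 p-value and -log10 q-value columns for ranks and thresholds. No list held a peak with a -log10 p under 10.00074. The peak lists hold no read counts, so depth is unknown. One deposited table of normalized values has no region on this chromosome and was not used.

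Peaks sharing 1 bp were merged over all libraries, and the highest enrichment per library and region was taken on a log2 scale. For levels, regions with a peak in all 20 libraries of an antibody were centred on each library's median and fitted with limma 3.58.1 (R 4.3.3), with fusion and gRNA pool as terms. Detection was compared by two-sided Fisher's exact tests over regions with a peak in at least 2 of 20 libraries (scipy 1.17.1). Benjamini-Hochberg adjustment ran over all regions, with a threshold of 0.05. Both tests were tested on simulated data. Gene positions and exons are those of GENCODE 44 on GRCh37, by the canonical transcript or, where there was none, the gene record. Of the window list, CASC21, CCAT1, PCAT2, TMEM75, MIR1204, MIR1206 and LINC00977, and of the markers PECAM1, had no record under that name. The starts of MIR1205, MIR1207 and MIR1208 had no peak.

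Named regions were the MYC start, the recurrent regions of each antibody (most libraries first), HA regions, any region called, and listed genes. The +74 kb fit replaced the planned fit of H3K27ac at the MYC start. The members, gene lists and regions were chosen with earlier results of these data known. The 2 HA lists of dCas9-VP16(10x) at ERBSs were given with and without counting them once. Peak names of 1 H3K27ac library, dCas9-VP16(10x) Pool 1 replicate 2, carry a letter used in names of dCas9-p300(core) libraries; its label was kept.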

Additional observations from a re-analysis of the deposited data

Results flagged for a closer look

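Among 26 groups of 4 to 10 libraries examined, 2 values stood apart from the others of their group by Dixon's criterion, which flags about 1 in 20 groups by chance. Both belonged to the RNAPII library of dCas9-p300(core) with Pool 2 gRNAs, replicate 1. It had 13 peaks in the MYC window, against 5 to 9 in the other 9 libraries of the group, and its peaks covered 3315 bp of PVT1 regions, against 905 to 2149 bp. Its list was the longest of the RNAPII lists, with 40757 peaks.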

How the results depend on the processing

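The levels of H3K27ac at the MYC start between fusions and across gRNA pools could not be fitted, since 3 of 10 dCas9-p300(core) libraries had a peak there; the fits at +74 and +119 kb and the count with the HA pair as 1 library were chosen after seeing the data. Run identifier could not be fitted for RNAPII, nor could its libraries of 1 run. Without centring, the log2 difference between fusions was -0.77 for RNAPII at the MYC start (adjusted p = 0.0017), -0.88 at +119 kb and 1.18 for H3K27ac at +74 kb, where the median of all regions moved by -0.71 and 1.00. With the IL1RN libraries alone it turned to 0.064 at the MYC start and 0.35 at +119 kb for RNAPII, and with the libraries with no run identifier to -0.40 for H3K27ac at +74 kb. Without single libraries it was -0.11 to -0.01 at the MYC start, 0.003 to 0.31 at +74 kb and -0.25 to -0.08 at +119 kb, and none was called. The F test across pools was called in no alternative (adjusted p of at least 0.99 for RNAPII at the MYC start, with 0.9925 as the lowest over single libraries left out, and of at least 0.11 at +74 kb).

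The number of window regions called for H3K27ac detection, 1, was 3 with -log10 q of at least 20, 3 with a peak in at least 5 libraries, 0 with peaks merged up to 1000 bp apart, 0 with lists cut to the same number of peaks, and 1 to 17 with single libraries left out; without the library whose peak names are in doubt it was 1. For RNAPII it was 0 with -log10 q of at least 20, 2 with merging within the antibody, 0 with merging up to 1000 bp, and 1 for each library left out. For neither antibody is the share of all regions called under these alternatives given here. Replicate numbers were not used to pair the libraries in the main tests. For H3K27ac they largely followed the run identifier, with replicate 1 mostly of run 15977 and replicate 2 mostly with none. Correlations of same-numbered libraries' deviations ran from -0.503 to 0.931 for H3K27ac and -0.4 to 0.719 for RNAPII. Some libraries thus varied together and others in opposite directions, which does not settle whether the numbers pair them. With the replicate block, 3 regions were called for H3K27ac and 0 for RNAPII, and the level difference stayed -0.06 at the MYC start (RNAPII) and 0.18 at +74 kb (H3K27ac).

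The 9 recurrent H3K27ac regions became 22 with at least 5 libraries, 1 with all 20, 2 with lists of equal length and 1 where peaks had to cover 50% of the region. The 4 RNAPII regions became 12, 2, 4 and 0 under the same alternatives and 6 with merging within the antibody. The 2 HA regions became 5 with merging within the antibody, 0 with the 50% cover and 2 with the ERBS pair counted once. The cause of these changes was not tested beyond the alternatives' construction.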
